A study of Mus musculus with 6 samples.

Results

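The 10 genes described here encode activator protein 1 (AP-1) subunits and other immediate early products. They are the Fos family (Fos, Fosb, Fosl1 and Fosl2), the Jun family (Jun, Junb and Jund), and Egr1, Ier2 and Ier3. They were taken by gene symbol from the deposited table of 54532 genes. The rule used no measured value, but the members were chosen with earlier results of these data known. All 10 had enough reads to be tested, among 14246 tested genes. Their RNA was sequenced in immortalized cardiosphere-derived cells (iCDCs in the labels) of the mouse, explant-grown cells that the study calls iECDCs for their origin in the epicardium, the outer layer of the heart. Both groups shared the C57BL/6 background, the labelled heart ventricle as tissue, and a lentiviral human telomerase (hTERT) transgene that keeps the cells dividing. Both were at passage 30, and each group had 3 libraries. Control cells received no drug. Induced cells received 10 µM 5-azacytidine, an inhibitor of DNA methylation, for 3 days and were then kept in IMDM with 2% fetal bovine serum for 4 weeks. The medium and length of that last step are given differently in the labels and in the methods of the study. Since drug, low serum and time in culture came together, their parts in a difference cannot be told apart. All libraries came from 1 line, so the comparison does not extend over independent lines.

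AP-1 is a transcription factor made of a pair of basic leucine zipper proteins, most often a Fos family member with a Jun family member. Jun proteins can also pair with each other, whereas Fos proteins need a partner to bind DNA. Immediate early genes are switched on within minutes of a growth factor, serum or stress, through kinase cascades acting on factors that already sit in the cell, and their RNAs are mostly short-lived. The methods of the study do not say when either group last received fresh medium before harvest. Each level is therefore a level at harvest, and its place in a response is not known.

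Of the 10 genes, 3 rose in induced cells (Fos, Fosl2 and Jund) and 5 fell (Fosb, Fosl1, Jun, Junb and Egr1). Ier2 and Ier3 did not pass the test. A gene was called when its Benjamini-Hochberg adjusted p over all tested genes was under 0.05 in edgeR's quasi-likelihood test. By this rule 64.8% of all tested genes were called, 32.6% higher and 32.2% lower, so that 8 called genes of 10 are not far from the background. The largest difference was the 4.51-fold fall of Fosl1. It was the 1 gene of the 10 with a called change of at least 2-fold, a size reached by 17.1% of tested genes in either direction and by 7.83% in the lower direction. The median log2 fold change of the 10 genes was -0.25, against -0.01 over all tested genes. The groups did not overlap for 9 of the 10, with 68.6% as the share among all tested genes. In bulk RNA, fewer cells of a type and less RNA per cell cannot be told apart.

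**Figure D1:**
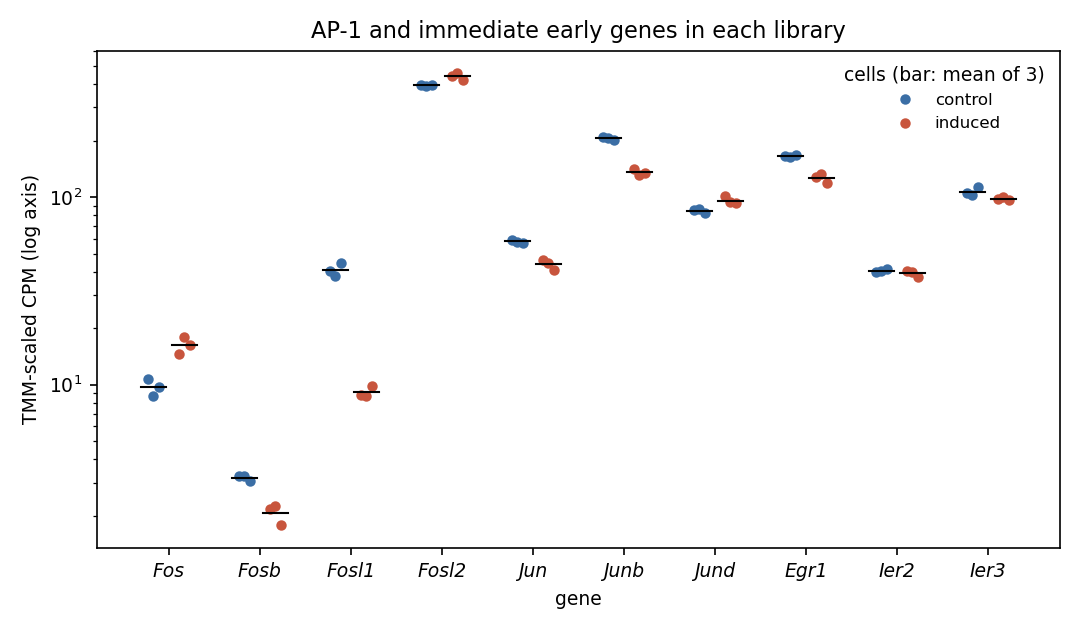
Level of each of the 10 genes in each library, in TMM-scaled CPM (reads scaled to library size) on a log axis, with 3 control and 3 induced libraries as points and the group means as bars. The libraries lie from 1.78 CPM for Fosb to 456 for Fosl2, and the groups overlap for Ier2 alone.

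**Figure D2:**
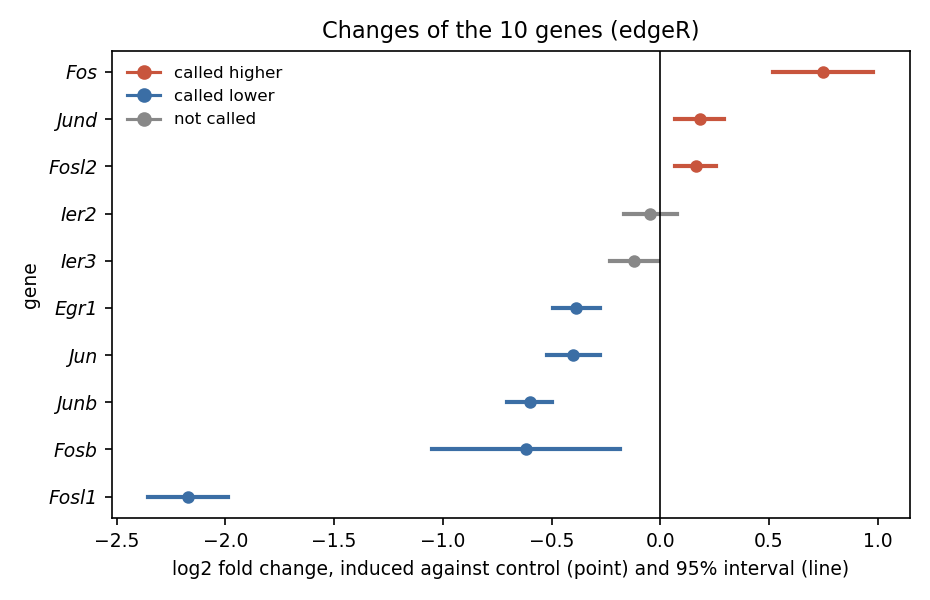
Log2 fold change of each of the 10 genes, induced against control, with 95% confidence intervals from edgeR. Fosl1 lies at -2.17, apart from the other 9 genes, which lie between -0.62 and 0.75.

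Total counts were 19041133 to 19823369 reads per library, and 3 counts, the limit that a count of 0 allows, equal 0.151 to 0.158 CPM, the usual scaling of counts to library size. Such limits cover counting error only. The labelled cell type was checked against marker genes. Mesenchymal markers (Col1a1, Col1a2, Pdgfra, Pdgfrb, Thy1 and Ddr2) summed to 15511 to 16222 CPM in control and 15428 to 16849 CPM in induced libraries, with 3 of the 6 called higher and 3 lower. The epicardial markers Wt1, Tbx18, Tcf21 and Upk3b summed to 348 to 359 and 1021 to 1144 CPM, most of it from Upk3b (254 and 942 CPM on average). Wt1, Tcf21 and Upk3b rose, and Tbx18 fell from 63.7 to 50.7 CPM (log2 -0.33, edgeR adjusted p = 0.000429). Cardiomyocyte markers, of which 1 of 6 was tested, summed to 1.5 to 1.63 and 2.55 to 3.05 CPM, and endothelial markers to under 1 CPM in every library. Of 7 leukocyte markers 5 were at 0 reads in all 6 libraries (Ptprc, Cd52, Tyrobp, Itgam and Adgre1). The leukocyte sum nevertheless went from 4.76 to 6.41 CPM in control to 40.7 to 47.7 CPM in induced libraries, through Cd68 and Lyz2. The part of these marker changes in the results that follow was not tested.

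Within the Fos family, Fos and Fosl2 rose while Fosl1 and Fosb fell. Fos encodes the founding member of the family, a short-lived protein with a transactivation domain. It lies on the forward strand of chromosome 12 at 85473890 to 85477273, in the coordinates of the deposited table. Its level was 10.7, 8.66 and 9.72 CPM in control libraries 1 to 3 and 14.6, 18.0 and 16.3 CPM in induced libraries 1 to 3. Every induced library stood above every control library. The mean went from 9.69 ± 1.01 to 16.3 ± 1.74 CPM (SD, n = 3), a 1.68-fold rise (log2 fold change 0.75, SE 0.11, 95% interval 0.52 to 0.98, edgeR adjusted p = 8.87e-06). This rested on 575 reads summed over the control libraries and 928 over the induced ones. The libraries of a group varied by 10.5% and 10.7% (coefficient of variation), where counting alone would give 7.22% and 5.69%.

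The sequence before the start of Fos is shown because it holds 2 of the motifs searched. The CArG box, which serum response factor binds, was not found in this window. The capitals mark TGACGT, a cyclic AMP response element core, and TATAAA, the TATA box. The letters are RefSeq's for GRCm38.p6, chr12:85473640-85473939, forward strand, with 250 bases before and 50 from the start on.
Fos promoter: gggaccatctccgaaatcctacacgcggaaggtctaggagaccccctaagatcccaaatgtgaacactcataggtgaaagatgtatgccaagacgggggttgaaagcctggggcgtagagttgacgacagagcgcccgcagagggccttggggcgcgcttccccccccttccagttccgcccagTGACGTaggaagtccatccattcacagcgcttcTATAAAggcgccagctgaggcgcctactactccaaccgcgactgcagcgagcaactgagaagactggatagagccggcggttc
TGACGT begins at -66 and TATAAA at -33, counted from the start at +1. On either strand, TGACGT was found in 7.51% and TATAAA in 13.6% of the 32851 mouse promoters of this length in the same table. Neither match is evidence that a factor binds there.

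Fosl2, also known as Fra-2, encodes a Fos protein without the strong transactivation domain of Fos. The gene is on the forward strand of chromosome 5 at 32135801 to 32157842. Its libraries gave 394, 389 and 396 CPM in control and 442, 456 and 422 CPM in induced cells. The induced libraries were all higher, by a small margin. The means were 393 ± 3.61 and 440.2 ± 16.9 CPM (SD, n = 3), which is 1.12-fold higher (log2 0.16, SE 0.04, edgeR adjusted p = 0.00379). The reads summed to 23330 in control and 25047 in induced libraries, so counting error was small.

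Only the 3′ untranslated region of the principal coding transcript of each gene was searched for TTATTTATT, the nonamer of AU-rich elements that mark unstable RNAs. Those of Fos and Fosl2 hold it, and that of no other member does. Jund, which also rose, has none. The 3′ untranslated region of Fosl2 has 4653 bases, against a median of 1030 over all tested coding genes. The nonamer was looked for after the data were seen, and a link to the changes was not tested. The nonamer is shown in capitals with 10 bases on each side, from the 3′ untranslated region of the principal GENCODE M21 transcript (GRCm38). The Fos site is chr12:85477103-85477131 and the Fosl2 site chr5:32156871-32156899, both on the forward strand.
Fos site: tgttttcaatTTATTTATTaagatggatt
Fosl2 site: atttattttaTTATTTATTttaaatgttt
The nonamer was present in 2 of 10 genes (20%) and in 910 of 12244 tested coding genes (7.43%). The shorter pentamer ATTTA occurred 8 times in the 3′ untranslated region of Fosl2, 5 times in Ier3, 4 times in Fos and in Jun, and 2 times in Junb and in Egr1. Fosb, Fosl1 and Jund had 1 copy and Ier2 none. Per kilobase the median was 1.80 for the 10 genes and 1.28 for all tested coding genes.

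Fosl1, also known as Fra-1, encodes a Fos protein often abundant in dividing and migrating mesenchymal cells, and its gene is itself a target of AP-1. It lies on the forward strand of chromosome 19 at 5447703 to 5455945. Its libraries gave 40.4, 38.2 and 44.5 CPM in control and 8.82, 8.68 and 9.80 CPM in induced cells. The lowest control library stood well above the highest induced library. The mean fell from 41.0 ± 3.20 to 9.10 ± 0.611 CPM (SD, n = 3), which is 4.51-fold lower (log2 -2.17, SE 0.09, 95% interval -2.36 to -1.99, edgeR adjusted p = 1.6e-13). The reads summed to 2435 and 518. Among all tested genes, 215 (1.51%) had a lower log2 fold change. The 488 tested genes of chromosome 19 had a median log2 fold change of 0.17. Of the exon bases of Fosl1 in GENCODE M21, 57.2% (1163 of 2033) lie opposite Ccdc85b on the other strand. Fosl1 is the 1 gene of the 10 whose deposited model (1707 bases) differs from that annotation, so the overlap of the counted model was not computed. Whether reads were counted by strand is not given in the sources used here, so reads of the pair may not be told apart. Ccdc85b went from 93.9, 102 and 103 to 69.0, 55.3 and 62.7 CPM (log2 -0.68, edgeR adjusted p = 9.31e-08), a smaller difference than that of Fosl1.

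Fosb encodes the Fos protein best known from long-lived changes in stimulated neurons. The gene is on the reverse strand of chromosome 7 at 19302696 to 19310051. It was the member with the fewest reads, 64, 64 and 61 in control and 41, 43 and 34 in induced libraries, or 3.24, 3.26 and 3.06 against 2.18, 2.26 and 1.78 CPM. The 3 induced libraries were below the 3 control libraries. The fall was 1.53-fold (log2 -0.62, SE 0.20, 95% interval -1.05 to -0.19, edgeR adjusted p = 0.0134). Without induced replicate 3 the change was -0.51 and the adjusted p 0.0614, so the call rests on that library.

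In FPKM (fragments per kilobase, scaled to library depth), which allow levels of different genes to be compared, Fosl2 held most of the Fos family RNA in both groups and its share was higher in induced cells. The summed Fos family level was 68.8, 66.0 and 71.1 FPKM in control and 57.3, 60.0 and 56.5 FPKM in induced libraries. The Fosl2 share of this sum was 58.7 ± 1.53% in control and 78.3 ± 1.25% in induced cells (SD, n = 3). Fosl1 had 34.7 ± 1.53% and 9.20 ± 0.868%, and Fos had 5.94 ± 0.535% and 11.9 ± 1.01%. Fosb stayed under 1% in every library (0.738 ± 0.0502% and 0.571 ± 0.0581%). The shares are tied to each other, since they divide the same sum. Mean FPKM went from 40.2 to 45.4 for Fosl2 and from 23.8 to 5.32 for Fosl1. None of these 4 shares overlapped between the groups, and each gave p = 0.1 in an exact two-sided permutation test, the smallest that 3 against 3 libraries allow. The size of the shares depended on the length used. In CPM, which is not per length, Fosl1 went from 9.17% to 1.95% and Fosl2 from 88.0% to 94.1%. With CPM divided by the length of the principal coding transcript, Fosl1 went from 25.1% to 6.08% and Fos from 5.24% to 9.60%.

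**Figure D3:**
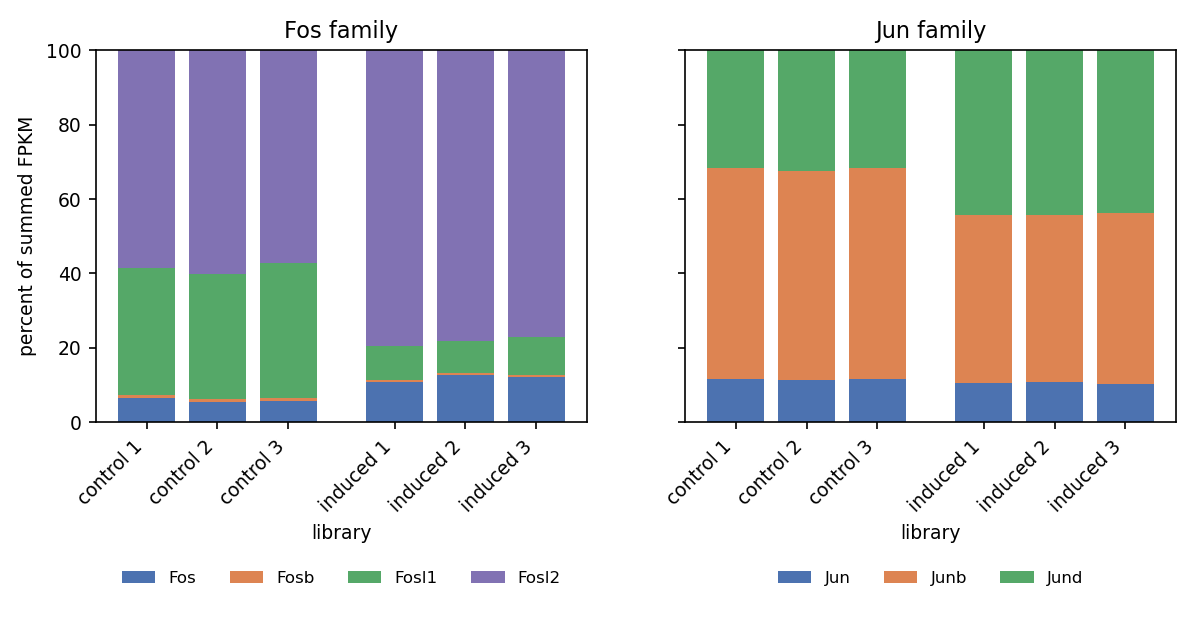
Share of each gene in the summed FPKM of the Fos family (left) and of the Jun family (right), in percent, with 1 stacked bar per library. The Fosl1 part of the Fos family bars is 33.5% to 36.4% in control and 8.44% to 10.1% in induced libraries, and the Jund part of the Jun family bars is 31.7% to 32.4% and 43.7% to 44.2%.

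Within the Jun family, Jun and Junb fell and Jund rose. Jun encodes c-Jun, the family member with the strongest transactivation, which is activated by the Jun N-terminal kinases. Its place is the reverse strand of chromosome 4 at 95049034 to 95052222. The control libraries gave 59.3, 57.4 and 57.2 CPM and the induced libraries 46.4, 44.4 and 41.1 CPM. The groups were apart in every library. The mean went from 58.0 ± 1.20 to 44.0 ± 2.68 CPM (SD, n = 3), a 1.32-fold fall (log2 -0.40, SE 0.06, 95% interval -0.52 to -0.28, edgeR adjusted p = 7.38e-06). Of its exon bases 7.28% lie opposite the antisense gene Junos, which was at 0.262 to 1.01 CPM.

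Junb encodes a Jun protein that often restrains c-Jun. It lies on the reverse strand of chromosome 8 at 84974484 to 84978718. The libraries gave 209, 207 and 202 CPM in control and 142, 132 and 134 CPM in induced cells. No induced library reached the control range. The mean went from 206 ± 3.98 to 136 ± 5.22 CPM (SD, n = 3), which is 1.52-fold lower (log2 -0.60, SE 0.05, 95% interval -0.70 to -0.50, edgeR adjusted p = 3.83e-09). With 12232 and 7739 summed reads it had the smallest adjusted p after Fosl1. Of its exon bases 7.52% lie opposite Prdx2, which also fell (log2 -0.28, edgeR adjusted p = 0.00017).

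The promoters of Jun and Junb are shown because both genes fell while the third family member did not. The letters are from RefSeq on GRCm38.p6, the reverse strand of chr4:95052173-95052472 for Jun and of chr8:84978699-84978998 for Junb. In Jun the capitals mark TGACATCA, the variant AP-1 element through which Jun is known to act on its own gene, and in Junb they mark TATAAA.
Jun promoter: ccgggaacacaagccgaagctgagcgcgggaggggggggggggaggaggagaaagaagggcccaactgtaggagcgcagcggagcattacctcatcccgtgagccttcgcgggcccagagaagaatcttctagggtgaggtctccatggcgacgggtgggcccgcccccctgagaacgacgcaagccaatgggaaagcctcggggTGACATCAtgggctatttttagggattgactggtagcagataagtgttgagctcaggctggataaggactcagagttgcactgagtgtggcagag
Junb promoter: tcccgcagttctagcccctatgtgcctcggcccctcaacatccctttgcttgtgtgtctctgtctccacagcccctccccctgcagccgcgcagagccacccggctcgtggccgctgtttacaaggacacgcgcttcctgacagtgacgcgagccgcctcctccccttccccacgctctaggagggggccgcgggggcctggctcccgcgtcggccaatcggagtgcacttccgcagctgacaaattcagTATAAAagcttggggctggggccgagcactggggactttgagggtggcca
TGACATCA begins at -45 in Jun and was found in 3.62% of all promoters in the table. TATAAA in Junb begins at +1 of the table's start, which lies 30 bases from the start in the deposited table. Of the 10 genes 7 had a promoter in the table (not Fosl1, Egr1 and Ier2). For Jund and Fosl2 the table's start lies 1210 and 671 bases from the deposited one. None of the 7 held the consensus AP-1 site TGAGTCA (5.20% of all promoters), the full cyclic AMP response element TGACGTCA (1.79%, which contains TGACGT), the CArG box bound by serum response factor (1.63%) or the Egr site GCGTGGGCG (0.612%). This says that those letters are not in this window and nothing about the factors.

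Jund encodes the Jun protein that is present in most resting cells and is the least inducible of the family. It lies on the forward strand of chromosome 8 at 70698949 to 70700616. The libraries gave 85.0, 86.5 and 81.8 CPM in control and 101, 94.0 and 92.5 CPM in induced cells. All induced libraries were higher than all control libraries. The mean went from 84.5 ± 2.42 to 95.8 ± 4.36 CPM (SD, n = 3), which is 1.13-fold higher (log2 0.18, SE 0.05, 95% interval 0.07 to 0.29, edgeR adjusted p = 0.00687). Its overlap with the antisense gene Gm11175 covers 52.6% of its exon bases, and that gene had 0 reads in all 6 libraries. Since the strand setting and the handling of shared reads are not known here, those 0 reads do not show that Jund lost none. The level of Jund, and with it its share of the family, may be affected.

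The summed Jun family level was 159, 158 and 154 FPKM in control and 136, 127 and 127 FPKM in induced libraries, lower in every induced library than in any control library (p = 0.1 in the exact two-sided permutation test). The Fos family sum in FPKM was lower in the same way (p = 0.1 in the exact permutation test). In CPM, which is not per length, the Jun family sum was again lower (349 ± 6.95 against 276 ± 11.5, SD, n = 3), but the direction of the Fos family sum turned. On that scale it was 447 ± 7.21 for control cells against 468 ± 17.4 for induced ones, with overlapping groups. Junb was the leading member in control cells, with 56.6 ± 0.201% of the sum (SD, n = 3). In induced cells it had 45.4 ± 0.633%, close to the 44.1 ± 0.263% of Jund, which had been at 32.0 ± 0.399%. Jun had 11.5 ± 0.198% and 10.6 ± 0.380%. These 3 shares did not overlap between the groups either, and each again gave p = 0.1, the smallest possible in the exact two-sided permutation test. Junb and Jund were close in induced cells with the deposited lengths only. In CPM Junb had 49.3% and Jund 34.7% of the induced sum, and with CPM divided by the length of the principal transcript 51.4% and 39.2%. In CPM the Jun share was 16.6% and 15.9% (p = 0.2, exact two-sided permutation test).

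Egr1 encodes a zinc finger factor that binds GC-rich sites and is among the fastest genes to answer serum. The table places it on the forward strand of chromosome 18 at 34859823 to 34864984. The control libraries gave 166, 162 and 168 CPM and the induced libraries 128, 133 and 119 CPM. The groups were well apart. The mean went from 166 ± 2.93 to 127 ± 6.87 CPM (SD, n = 3), which is 1.31-fold lower (log2 -0.39, SE 0.05, 95% interval -0.49 to -0.28, edgeR adjusted p = 3.04e-06).

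Ier2 and Ier3 are short immediate early genes, the first encoding a nuclear protein and the second a regulator of survival. Ier2 lies on the reverse strand of chromosome 8 at 84661331 to 84662852 and gave 39.6, 40.5 and 41.1 CPM in control and 40.2, 40.0 and 37.4 CPM in induced libraries. Its groups overlapped, and the 95% interval of the log2 fold change was -0.17 to 0.08 (-0.04, edgeR adjusted p = 0.524). Ier3, on the forward strand of chromosome 17 at 35821684 to 35822923, gave 105, 102 and 112 CPM in control and 97.5, 99.9 and 96.9 CPM in induced libraries. The induced libraries were all a little lower, but the gene did not pass (log2 -0.12, SE 0.05, 95% interval -0.23 to -0.01, edgeR adjusted p = 0.0538). It passed when library totals alone set the scale (0.0153) and without induced replicate 2 (0.0192), and over all alternatives the adjusted p was 0.0153 to 0.305.

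With the deposited lengths, Ier3 had the highest mean FPKM of the 10 genes in both groups and Fosb the lowest. In control cells the order by mean FPKM was Ier3 (93.4), Junb (88.8), Jund (50.2), Fosl2 (40.2), Egr1 (36.6), Ier2 (26.3), Fosl1 (23.8), Jun (18.0), Fos (4.08) and Fosb (0.506). The ranges over libraries met for Ier3 with Junb and for Ier2 with Fosl1, and for no other neighbours. In induced cells it was Ier3 (86.6), Junb (59.0), Jund (57.3), Fosl2 (45.4), Egr1 (28.2), Ier2 (25.7), Jun (13.8), Fos (6.92), Fosl1 (5.32) and Fosb (0.332), where the ranges met for Junb with Jund alone. Fosl1 was above Fos in every control library and below it in every induced library. With CPM divided by the length of the principal transcript, in kilobases, Junb (114) was above Ier3 (94.3) in control cells and below it in induced cells (75.2 against 86.7), and Fosl2 was above Jund in both groups (60.2 against 50.6 and 67.3 against 57.4). Fosl1 and Fos changed places in the same way on that scale (22.0 against 4.6 in control and 4.88 against 7.73 in induced cells). The principal transcripts of Jun, Junb, Jund and Ier2 have a single exon, which is 4 of 10 (40%) against 281 of 12244 tested coding genes (2.30%).

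Other genes of the pathway were read from lists, with 64.8% of all tested genes called as the background for each. A pair of values in parentheses after a gene is its log2 fold change and edgeR adjusted p. Among 11 tested AP-1 partners, the basic leucine zipper proteins that pair with Fos or Jun, 7 rose and 3 fell, with a median log2 fold change of 0.25. Atf4, a stress-induced factor, went from 303 ± 2.53 to 509.8 ± 11.7 CPM (SD, n = 3; log2 0.75, edgeR adjusted p = 2.78e-11). Jdp2, a repressor that pairs with Jun, went from 54.2 to 89.2 CPM (log2 0.72, edgeR adjusted p = 5.58e-10), and Mafk, a small Maf protein, from 30.0 to 44.9 CPM (log2 0.58, edgeR adjusted p = 1.36e-06). Batf3, a partner of Jun known from dendritic cells, fell from 54, 52 and 51 reads to 3, 5 and 1 reads (log2 -4.01, SE 0.39, edgeR adjusted p = 5.27e-08). The other 2 partners that fell, Atf2 (log2 -0.18) and Atf7 (log2 -0.18), lost their calls in some settings, including without control replicate 1 or induced replicate 3, where 1 partner was called lower.

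**Figure D4:**
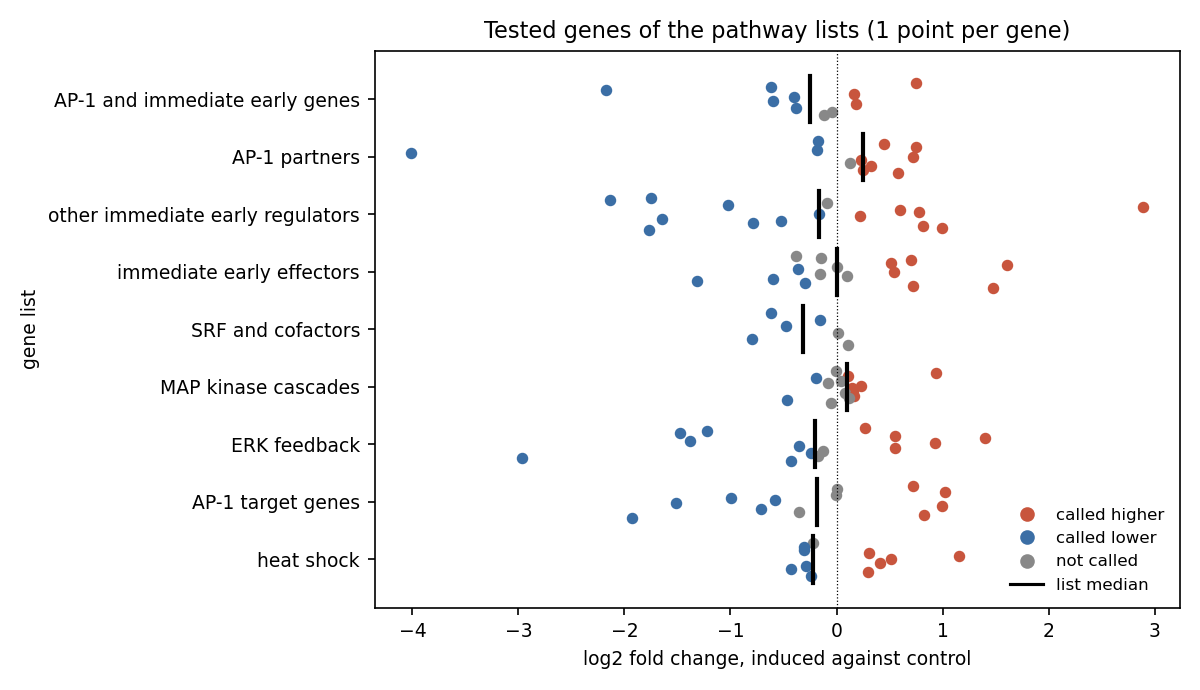
Log2 fold change, induced against control, of every tested gene in each pathway list (points) with the list median (bar). Medians lie between -0.32 for serum response factor and its cofactors and 0.25 for AP-1 partners, and the lowest point is Batf3 at -4.01.

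Among 15 other tested immediate early transcriptional regulators, 6 rose and 8 fell (median log2 fold change -0.17). Myc, which drives growth and division, fell from 87.4 ± 2.52 to 27.9 ± 1.34 CPM (SD, n = 3; 3.13-fold lower, log2 -1.65, edgeR adjusted p = 2.17e-14). It lies, as Atf4 and Atf7 do, on chromosome 15, whose 561 tested genes had a median of -0.24. Csrnp1 (log2 1.00, edgeR adjusted p = 2.16e-10), Btg2, which slows division (0.82, 3.77e-10), and Klf4 (0.78, 1.13e-09) rose. The 15 tested immediate early effectors, which are not transcription factors, had 6 higher, 4 lower and a median of 0.00. The matricellular gene Ctgf rose from 157 to 476 CPM (log2 1.60, edgeR adjusted p = 2.47e-15) and Hbegf, an epidermal growth factor receptor ligand, from 10.0 to 27.9 CPM (log2 1.48, edgeR adjusted p = 1.25e-10). The kinase gene Sgk1 fell from 232 to 93.0 CPM (log2 -1.32, edgeR adjusted p = 3.55e-13) and Trib1, also on chromosome 15, from 110.1 to 72.6 CPM (log2 -0.60, edgeR adjusted p = 1.28e-08).

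Upstream, serum response factor and its cofactors act on CArG boxes of Fos and Egr1, and 4 of these 6 genes fell while none rose (median log2 fold change -0.32). Srf went from 78.1 ± 0.960 to 50.9 ± 0.683 CPM (SD, n = 3; log2 -0.62, edgeR adjusted p = 4.81e-09). Mkl1, the actin-regulated coactivator and a further gene of chromosome 15, had a log2 fold change of -0.80 (edgeR adjusted p = 2.79e-10), and the ternary complex factor Elk3 of -0.48 (8.52e-07). For Elk1 the change was -0.16 (edgeR adjusted p = 0.0491), and 13 of 15 alternatives put it outside the threshold. Of 14 tested genes of the MAP kinase cascades 6 rose and 2 fell (median 0.10), with Braf, an upstream kinase, from 29.1 to 55.7 CPM (log2 0.94, edgeR adjusted p = 9.61e-09). The changes of the other 5 that rose were at most 0.23 on the log2 scale. The count of 6 became 2, 1 and 3 without control replicate 1, 2 and 3. Mapk14, a stress-activated kinase (log2 0.17, edgeR adjusted p = 0.0092), lost its call without control replicate 2 (0.0573). Map2k2 (-0.19, 0.00604) and Rps6ka1, a kinase acting after ERK (-0.47, 0.00011), fell.

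The list of ERK feedback genes, most but not all of which are induced by ERK signalling or dampen it, had 5 higher and 7 lower of 14 tested (median log2 fold change -0.20). The falls with the smallest p were in Dusp4 (log2 -1.22, edgeR adjusted p = 7.61e-13), Dusp5 (-1.48, 1.13e-10) and Dusp10 (-1.38, 6.2e-09), which encode phosphatases of MAP kinases, and in the transcription factor gene Etv4, which went from 18.0 ± 1.29 to 2.30 ± 0.372 CPM (SD, n = 3; log2 -2.96, edgeR adjusted p = 1.08e-12). The 5 that rose were Dusp8 (log2 1.40, edgeR adjusted p = 2.3e-07), Spry1 (0.93, 1.99e-08), Spry4 (0.55, 2.71e-06), Dusp6 (0.55, 2.39e-05) and Dusp1 (0.27, 0.00541). Downstream, 12 of 14 genes often named as AP-1 targets were tested, of which 4 rose and 5 fell (median -0.18). Hmga1, a chromatin protein gene, fell from 249 ± 10.7 to 65.4 ± 2.64 CPM (SD, n = 3; log2 -1.93, edgeR adjusted p = 1.19e-15), and Cd44, the hyaluronan receptor gene, from 94.0 to 32.9 CPM (log2 -1.51, edgeR adjusted p = 4.23e-13). Hmox1, which breaks down heme, rose from 273 to 546 CPM (log2 1.00, edgeR adjusted p = 7.12e-13). Whether any of these genes is bound by AP-1 in these cells was not measured.

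Heat shock genes, another rapidly inducible group, were read beside these. Of 11 tested, 5 rose and 5 fell (median log2 fold change -0.22). Hspb1 rose from 154 to 342 CPM (log2 1.15, edgeR adjusted p = 1.46e-12) and Dnajb1 from 61.0 to 87.0 CPM (log2 0.51, edgeR adjusted p = 2.26e-07). Hspd1 (-0.43, 1.32e-06) and Hspa8 (-0.31, 1.8e-06) fell.

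Outside these lists, the genes whose profile over the 6 libraries was nearest to that of Fos were Zrsr1, Reck and Usp54. Their root mean square distances were 0.0522, 0.0553 and 0.0603 on the log2 CPM scale, each profile centred on its own mean. Zrsr1 had 15.8, 13.8 and 14.3 CPM in control and 23.1, 27.6 and 26.2 CPM in induced libraries. The nearest to Fosl1 were Ttk, Bub1b and Kif14, at distances of 0.0684, 0.0806 and 0.0876. Bub1b had 81.3, 78.1 and 81.6 CPM in control and 15.9, 16.9 and 17.4 CPM in induced libraries. With 6 libraries in 2 groups such likeness is mostly a likeness of the fold change, and these genes were chosen for it.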

How the data were processed

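RNA of 3 control and 3 induced samples was sequenced, and the labels call them separate samples. Since nothing says that they came from separate cultures, the p-values measure the spread between these samples, which may be technical. Libraries of one group differed from each other beyond sampling noise (chi-square 2.56 to 8.91 per degree of freedom over genes with at least 20 summed counts), so none was counted as a copy.

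The authors deposited 1 table with raw read counts and FPKM values per gene and library. The FPKM values equal the deposited count divided by gene length and by a depth of 0.980 to 1.03 times the total. The submitters' processing notes name HISAT2 2.0.5, featureCounts 1.5.0-p3, DESeq2 1.16.1 and the mm10 build, without a role. The strand setting is not given in the sources used here, and the library kit is named without a strand-marking step. Deposited fold changes, p-values and Gene Ontology tables hold the authors' own comparisons and were not used.

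The counts were fitted with edgeR 4.0.16 (R 4.3.3), using filterByExpr (minimum count 10, minimum total 15), TMM scaling, and the two-sided quasi-likelihood test with Benjamini-Hochberg adjustment over 14246 genes, which held 99.9% of the reads. CPM values are TMM-scaled. Family shares were computed from FPKM and tested with an exact permutation test. Exon overlaps and transcripts were read from GENCODE M21, and 9 of 10 genes had the same coordinates there as in the deposited table. Promoters came from RefSeq. The members and lists were chosen with earlier results of these data known. The elements TGACATCA and TGACGT and the untranslated region elements were added after the data were seen. Named genes are the 10 members, the 4 genes of each pathway list with the smallest p, AP-1 partners past 2-fold, and the 3 genes outside the lists nearest in profile to the member with the largest rise and to that with the largest fall. Of the genes this rule names, 1 is not reported here. Ccdc85b, Junos, Prdx2 and Gm11175 are named for their overlap, and a few list genes were named after their values were seen.

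Alternatives were median-ratio size factors, library totals alone, DESeq2 1.42.0, leaving out each library in turn, a replicate block, a threshold of 0.01 on the adjusted p, limma 3.58.1 on FPKM values in log2 with 1 or 0.1 added, no filter, and a stricter one that asked for 1 CPM in 3 libraries and a mean count of 10. Shares from CPM were planned too, and shares per principal transcript, alternatives of the family sums and the order per principal transcript were added after the data were seen.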

Additional observations from a re-analysis of the deposited data

How the results depend on the processing

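No named gene and no family share changed direction under any alternative. The summed Fos family, lower in induced cells in FPKM (log2 -0.24), was higher in CPM, which is not per length (log2 0.0645). Of 720 values for 48 named genes, 702 kept their side of the threshold, 16 lost a call (Elk1 13 times, Fosb 2 times, Mapk14 once) and 2 gained one (both Ier3). Of the 10 genes, 3 were called higher in every alternative, and 4 to 6 were called lower. The log2 fold change of Fos ranged from 0.64 to 0.83 and that of Fosl1 from -2.22 to -1.97. The count of MAP kinase cascade genes called higher was 3 with library totals alone and 2 at an adjusted p of 0.01, and 1 to 4 when single libraries were left out, against 6. The count of AP-1 partners called lower was 1 with limma at both pseudocounts and at an adjusted p of 0.01, and 1 to 3 when single libraries were left out, against 3. The cause was not tested. With the replicate number as a block, 9063 genes were called, against 9225 without it, and the same 3 and 5 of the 10 genes' calls were counted in each direction. The libraries share only a number, since deviations of same-numbered libraries correlated at -0.002, -0.0151 and 0.0273. Counting error limits Fosb most, with 118 reads over the induced libraries, and 1 to 5 reads per induced library limit Batf3.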

Other observations

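Some further genes of the pathway lists are given here, and these were picked after their values were seen. Egr2 went from 4.52 ± 0.508 to 1.34 ± 0.268 CPM (SD, n = 3; log2 -1.75, SE 0.22, edgeR adjusted p = 1.12e-06) and Egr3 from 2.95 ± 0.110 to 0.668 ± 0.238 CPM (log2 -2.13, SE 0.28, edgeR adjusted p = 2.55e-06), both in the direction of Egr1. Among orphan nuclear receptors, Nr4a3 rose from 0.370 ± 0.124 to 2.79 ± 0.524 CPM (log2 2.89, SE 0.33, edgeR adjusted p = 3.5e-07). The size of this rise rests on few reads, 5, 7 and 10 in the control libraries against 44, 64 and 51 in the induced ones. Nr4a2 fell from 4.84 ± 0.609 to 2.37 ± 0.362 CPM (log2 -1.03, SE 0.19, edgeR adjusted p = 0.000107), and Nr4a1 had 16.3 ± 2.04 and 15.3 ± 2.41 CPM and did not pass (edgeR adjusted p = 0.506). Zfp36, whose protein binds AU-rich elements, had 46.5 ± 1.39 and 46.6 ± 1.46 CPM (log2 0.00, edgeR adjusted p = 0.945). No binding of Zfp36 protein to Fos or Fosl2 RNA was measured. Zfp36l1, a relative of Zfp36, fell from 66.5 ± 1.12 to 51.7 ± 4.13 CPM (log2 -0.36, SE 0.06, edgeR adjusted p = 3.41e-05).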
